A study of Mus musculus with 13 samples.

Results

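The genes described here encode the proteins of the mitochondrial ribosome. They were chosen by name, as symbols made of Mrpl (large subunit) or Mrps (small subunit), a number and at most 1 letter from a to d. The rule found 78 genes among the 55291 symbols of the count tables, 49 Mrpl and 29 Mrps. RNA was measured in 13 libraries, each from the CA1 region of a single entorhino-hippocampal tissue culture of wildtype C57BL/6 mice, prepared at postnatal day 4 to 5 and kept for at least 18 days in vitro. Control cultures were not lesioned (n = 5). In the Schaffer collateral lesion (SCL, n = 4) the axons from CA3 to CA1 were cut, and in the entorhinal cortex lesion (ECL, n = 4) the perforant path from the entorhinal cortex was cut, both 3 days before the tissue was taken. Each culture is an explant of a young hippocampus with its entorhinal cortex, the lesions are mechanical, and cultures of both sexes were used (control 2 male and 3 female, SCL 1 and 3, ECL 3 and 1).

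The mitochondrial ribosome translates the few messages that the mitochondrial genome encodes, all of them for membrane subunits of the respiratory chain and the ATP synthase. Its proteins are encoded in the nucleus, made in the cytosol and imported, while its rRNAs come from the mitochondrial genome, so that both genomes supply the particle. The large subunit forms peptide bonds, and the small subunit binds the message and decodes it. In neurons, mitochondria also sit in dendrites and axons. Symbols do not give the subunit in every case. The protein of Mrps18a and that of Mrps30 sit in the large subunit, and that of Mrps36 is now counted as a subunit of a dehydrogenase of the citric acid cycle.

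RefSeq promoter windows on GRCm38.p6, from 250 bases before to 50 after the start, matched 69 of the 78 symbols with 75 windows. They were searched on both strands for the letters CCGGAAG (ETS family), GCATGCGC (NRF1), AAGATGGC (YY1) and CCAAT. These are factors that textbooks name at nuclear genes of mitochondrial function, besides the common CCAAT box. The ETS letters stood in 34.7% of the member windows and in 8.9% of all 32851 windows. The NRF1 letters stood in 10.7% against 2.7%, the YY1 letters in 16% against 2.7%, and CCAAT in 40.0% against 37.4%. The end of the ETS letters and the start of the YY1 letters can overlap by 3 bases, which occurred in 0 member windows. The ETS letters stood in 37.1% of the 35 windows of members called higher after SCL and in 31.6% of the 38 windows of the other tested members, and after ECL in 30.8% of 39 and 38.2% of 34. The NRF1 letters stood in 2 of 35 and 6 of 38 windows in the same split by SCL and in 3 of 39 and 5 of 34 by ECL. A match of letters is a description and not a binding site.

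The bases before the start that lie in no annotated exon are shown for 4 members: Mrps18a, which had the largest rise after either lesion, Mrpl22, whose window held both the ETS and the NRF1 letters, Mrpl52, and Mrpl42, which was lower after ECL. Capitals mark the ETS letters in Mrps18a and Mrpl52 and the ETS and then the NRF1 letters in Mrpl22, and the stretch of Mrpl42 held none of the ETS, NRF1 or YY1 letters. The windows of Mrps18a and Mrpl42 held the YY1 letters outside the bases shown, and CCAAT is not marked. The stretches lie at chr17:46110754-46110985 (plus strand), chr11:58171414-58171660 (plus), chr14:54426659-54426908 (plus) and chr10:95501950-95502199 (minus) of GRCm38.p6 and are written 5′ to 3′.
Mrps18a: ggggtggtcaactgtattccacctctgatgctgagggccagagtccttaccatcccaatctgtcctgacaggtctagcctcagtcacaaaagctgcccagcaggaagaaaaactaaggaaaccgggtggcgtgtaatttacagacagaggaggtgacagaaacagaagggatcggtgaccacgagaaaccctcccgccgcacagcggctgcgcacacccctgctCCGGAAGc
Mrpl22: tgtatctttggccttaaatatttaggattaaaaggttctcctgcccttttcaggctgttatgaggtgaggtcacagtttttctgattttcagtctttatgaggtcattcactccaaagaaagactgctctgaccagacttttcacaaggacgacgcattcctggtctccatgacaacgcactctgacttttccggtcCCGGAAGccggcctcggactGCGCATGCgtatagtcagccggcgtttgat
Mrpl52: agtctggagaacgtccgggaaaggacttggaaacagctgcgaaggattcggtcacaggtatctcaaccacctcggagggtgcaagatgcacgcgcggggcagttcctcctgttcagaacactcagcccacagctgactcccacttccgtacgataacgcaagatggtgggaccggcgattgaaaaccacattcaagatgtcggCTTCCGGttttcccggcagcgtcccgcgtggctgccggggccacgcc
Mrpl42: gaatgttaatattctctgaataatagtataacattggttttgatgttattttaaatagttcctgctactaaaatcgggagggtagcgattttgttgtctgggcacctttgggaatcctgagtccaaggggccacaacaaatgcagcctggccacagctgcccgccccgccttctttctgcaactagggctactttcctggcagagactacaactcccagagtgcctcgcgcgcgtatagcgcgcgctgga

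Library totals lay between 14371152 and 56786613 counts, with controls at 21092612 or less and SCL 2 the deepest. Levels are given as CPM, counts relative to a common library size after TMM scaling, and CPM per kilobase of exon where genes are compared. The CA1 markers Wfs1, Fibcd1 and Pou3f1 were detected in every library. Their sum was 117 to 172 CPM in controls, 102 to 119 after SCL and 99.4 to 203 after ECL. After SCL, 1 of these 3 was called lower and 0 had a log2 fold change above 0. After ECL, 0 were called. Of 4 excitatory neuron markers, 1 was called lower after SCL and 0 after ECL. The dentate granule cell markers summed to 12.0 to 24.1 CPM, which matters since a protocol label names the dentate gyrus. All 10 microglia markers were detected in every library, and their sum was 482 to 598 CPM in controls, 962 to 2093 after SCL and 998 to 1453 after ECL. The sum of 6 cell cycle markers was 30.9 to 68.6 CPM in controls, 128 to 149 after SCL and 47.7 to 114 after ECL. The sum of 4 endothelial cell markers was 20.96 to 32.6 CPM in controls, 10.5 to 15.003 after SCL and 9.82 to 15.5 after ECL. Of 5 pan-neuronal markers, 2 were called lower after SCL and 3 after ECL, while the ranges of their sum overlapped (3278 to 4333, 2893 to 4016 and 2757 to 4358 CPM). Genes of the mitochondrial genome took 6.07 to 7.96% of counts in controls, 3.42 to 4.26% after SCL and 4.10 to 5.38% after ECL. This share includes the rRNAs mt-Rnr1 and mt-Rnr2, which fell after both lesions (below). It does not show how the other mitochondrial transcripts moved. Of 7 astrocyte markers, 4 were called higher after SCL and 3 after ECL, while the ranges of their sum overlapped. Among all genes tested, 13.1% and 15.2% were called higher and 11.8% and 12.5% lower. The CA1, dentate and pan-neuronal sums overlapped with controls, as did the cell cycle sum after ECL. The microglia and endothelial sums, the mitochondrial share and, after SCL, the cell cycle sum did not. Those values without overlap move with the lesions and so with the member genes below. Their part in the results was not tested, and in tissue of several cell types fewer cells of a type and less RNA per cell cannot be told apart.

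In controls the levels of the members spanned a wide range around a median of 18.1 CPM per kilobase, with 7 members above 100 and 22 under 10. Mrpl41, a protein of the large subunit with no bacterial counterpart, had the highest level, 358 ± 53.4 CPM per kilobase (SD, n = 5). Mrps18c (219.9 ± 52.3) and Mrps21 (219.5 ± 40.7) of the small subunit followed and did not differ beyond their spread. Mrps18b had 3.03 ± 1.33 and Mrpl23 1.23 ± 0.2105 CPM per kilobase, and no count of Mrpl53 was found in controls. Only 4 of the 77 pairs of neighbours in this order were further apart than the sum of their SDs, namely those below Mrpl41, Mrps33, Mrps18b and Mrpl23. The level per kilobase depends on the exon length in the annotation, which counts every annotated transcript. Of the exon bases, 88.0% of Mrpl53, 30.5% of Mrps18b and 23.2% of Mrps18c are shared with another gene, so their levels are uncertain. The variation between cultures was alike in the 3 groups, with a median coefficient of variation over 76 members of 17.4% in controls, 17.7% after SCL and 17.3% after ECL.

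Most of these genes had higher levels after either lesion, with a log2 fold change above 0 in 67 of 76 tested members after SCL and in 64 of 76 after ECL. Among all genes tested it was above 0 in 5791 of 11438 and in 5546 of 11212. Of the 76 members with enough counts to be tested, 36 rose and 1 fell after SCL, and 40 rose and 3 fell after ECL (edgeR's quasi-likelihood test, adjusted p under 0.05 over all genes tested). That is 47.4% and 52.6% of the members called higher, against 13.1% and 15.2% of all 11438 and 11212 genes tested. The share called lower among all genes was 11.8% after SCL and 12.5% after ECL. The median log2 fold change of the members was 0.49 after SCL and 0.55 after ECL, against 0.01 and -0.01 for all genes tested. In 34 members after SCL and 36 after ECL, every lesioned culture lay above every control, which held for 12.1% and 12.8% of all genes tested. The log2 fold change of members called higher after SCL lay between 0.44 and 1.32, reaching 1 in 9 of them. For ECL the bounds were 0.42 and 1.59, and 14 reached 1. Both comparisons use the same 5 control cultures, so their results are not independent of each other.

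**Figure D1:**
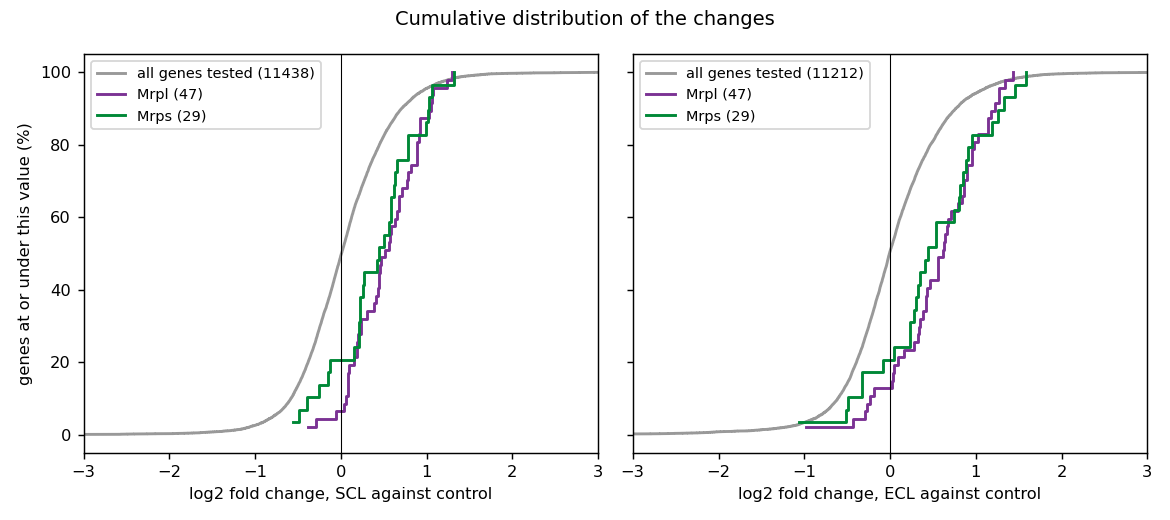
Cumulative share of genes (y axis, percent) at or under each log2 fold change (x axis) after SCL (left) and ECL (right), for the 47 Mrpl genes, the 29 Mrps genes and all genes tested. The lines of the members lie to the right of the line of all genes, with medians of 0.52 (Mrpl) and 0.45 (Mrps) after SCL and 0.62 and 0.45 after ECL.

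The number of SCL calls rested partly on single cultures. Without SCL 1 it was 22, and without any other culture it stayed between 25 and 40, while the ECL count stayed within 1.5 times in each such fit. Calls over all genes tested also fell, from 2848 to 1977 without SCL 1 and to 1679 without SCL 3, where 25 members were called. Per culture, the median member lay 0.73 above the control mean on the log2 scale in SCL 1 and 0.30 in SCL 4, the extremes of that group, and 0.75 in ECL 1 and 0.44 in ECL 4. SCL 4 was the only male SCL culture and ECL 1 the only female ECL culture. Within those groups, sex and the single culture cannot be told apart. Of the 37 calls after SCL, 18 held in all 19 alternatives at the same threshold, and of the 43 after ECL, 30 did. The alternatives leave out single cultures, scale by factors over all symbols, drop or lower the minimum level, halve the counts, use DESeq2, its size factors or a single fit of all libraries, or add the replicate number as a block, a term for sex or an offset for exon length and GC content.

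The members together took 5639 to 6163 CPM in controls, 7102 to 8507 after SCL and 6693 to 8385 after ECL, so that the groups with a lesion did not overlap with controls. The 49 Mrpl genes summed to 3847 ± 201 CPM in controls, 4993 ± 439 after SCL and 4967 ± 518 after ECL (SD). The 29 Mrps genes summed to 2067 ± 90.9, 2604 ± 209 and 2512 ± 230 CPM. The ratio of both sums was 1.66 to 2.04 in controls, 1.84 to 2.01 after SCL and 1.90 to 2.06 after ECL, and these ranges overlap. By gene, 24 of 47 Mrpl genes rose and 0 fell after SCL, and 27 rose and 1 fell after ECL. Of 29 Mrps genes, 12 rose and 1 fell after SCL, and 13 rose and 2 fell after ECL. The median of the Mrpl genes exceeded that of the Mrps genes by 0.07 after SCL and 0.17 after ECL (log2). With Mrps18a and Mrps30 counted in the large subunit and Mrps36 left out, the differences were 0.08 and 0.20. Leaving out single cultures gave differences by symbol of 0.01 (without control 3) to 0.11 after SCL and 0.11 (without control 3) to 0.19 after ECL. With an offset for length and GC content the difference was 0.19 after SCL and 0.087 after ECL, and the Mrps median after SCL went from 0.45 to 0.23. The difference between the lists was not tested.

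The large subunit genes that rose most encode proteins with bacterial counterparts and others found only in mitochondria. Mrpl36, the counterpart of bacterial L36 on chromosome 13 (73328513 to 73332178), had 66.8, 86.7, 69.1, 41.6 and 49.98 CPM in controls, 178, 149.6, 153 and 139.8 after SCL and 204, 145, 123 and 129 after ECL. Every lesioned culture lay above every control. The log2 fold change was 1.30 ± 0.19 after SCL (± SE, adjusted p = 0.00157 by edgeR) and 1.27 ± 0.21 after ECL (adjusted p = 0.00101). Mrpl20, whose bacterial counterpart is needed early in assembly of the subunit, had 103, 120.3, 132, 73.7 and 95.7 CPM in controls, 206, 202, 271 and 189 after SCL and 225, 257, 222 and 214 after ECL, again with no overlap. Mrpl22, the counterpart of a protein that lines the exit tunnel, had 35.6, 30.4, 25.1, 28.9 and 23.1 CPM in controls, 57.6, 55.8, 72.1 and 47.4 after SCL and 65.1, 75.9, 49.1 and 61.3 after ECL. Its log2 fold changes were 1.02 ± 0.17 (adjusted p = 0.00243 by edgeR) and 1.14 ± 0.17 (adjusted p = 0.000496). Mrpl24 rose by 0.92 after SCL and 0.98 after ECL on the log2 scale without overlap, but 26.3% of its exon bases are shared with Rrnad1 on the other strand and the counting ignored strand.

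Among the large subunit proteins without a bacterial counterpart, Mrpl54 and Mrpl55 had the largest rises after ECL. Mrpl55 had 71.5, 71.6, 54.6, 19.00 and 47.9 CPM in controls, 153, 123, 122 and 103 after SCL and 162, 132, 131 and 109 after ECL. Control 4 was far below the other controls, and all lesioned cultures were above them. The log2 fold changes were 1.24 ± 0.29 after SCL (adjusted p = 0.0104 by edgeR) and 1.34 ± 0.29 after ECL (adjusted p = 0.00412). Mrpl54 had 27.2, 31.1, 35.2, 15.6 and 21.9 CPM in controls, 54.3, 49.99, 77.03 and 38.8 after SCL and 60.1, 81.1, 67.3 and 72.97 after ECL. No culture with a lesion overlapped with controls, and the log2 fold changes were 1.07 ± 0.25 (adjusted p = 0.00928 by edgeR) and 1.43 ± 0.21 (adjusted p = 0.000426).

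Mrpl40, Mrpl51 and Mrpl52 belong to the same class. Mrpl40 had 34.6 ± 3.86 CPM in controls, 65.9 ± 13.8 after SCL and 77.99 ± 17.8 after ECL (SD), with log2 fold changes of 0.93 ± 0.17 and 1.18 ± 0.17. Mrpl51 had 67.1, 83.4, 78.5, 66.4 and 65.8 CPM in controls, 115, 107, 202 and 109 after SCL and 155, 220.1, 149.7 and 167 after ECL, and SCL 3 stood above the other SCL cultures. Mrpl52 had 23.4, 37.9, 36.3, 16.3 and 22.5 CPM in controls, 34.9, 41.01, 107 and 47.7 after SCL and 46.7, 78.7, 56.01 and 72.8 after ECL. SCL 3 was again high, and SCL 1 overlapped with controls. The rise of Mrpl52 after SCL (1.08 ± 0.33, adjusted p = 0.0323, edgeR) was lost without SCL 3 (adjusted p = 0.143), without control 1, 4 or 5 (0.0575 to 0.0744) and with the offset for length and GC content (0.69, adjusted p = 0.0744), while that after ECL (1.23 ± 0.24, adjusted p = 0.00256) held in every alternative.

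**Figure D2:**
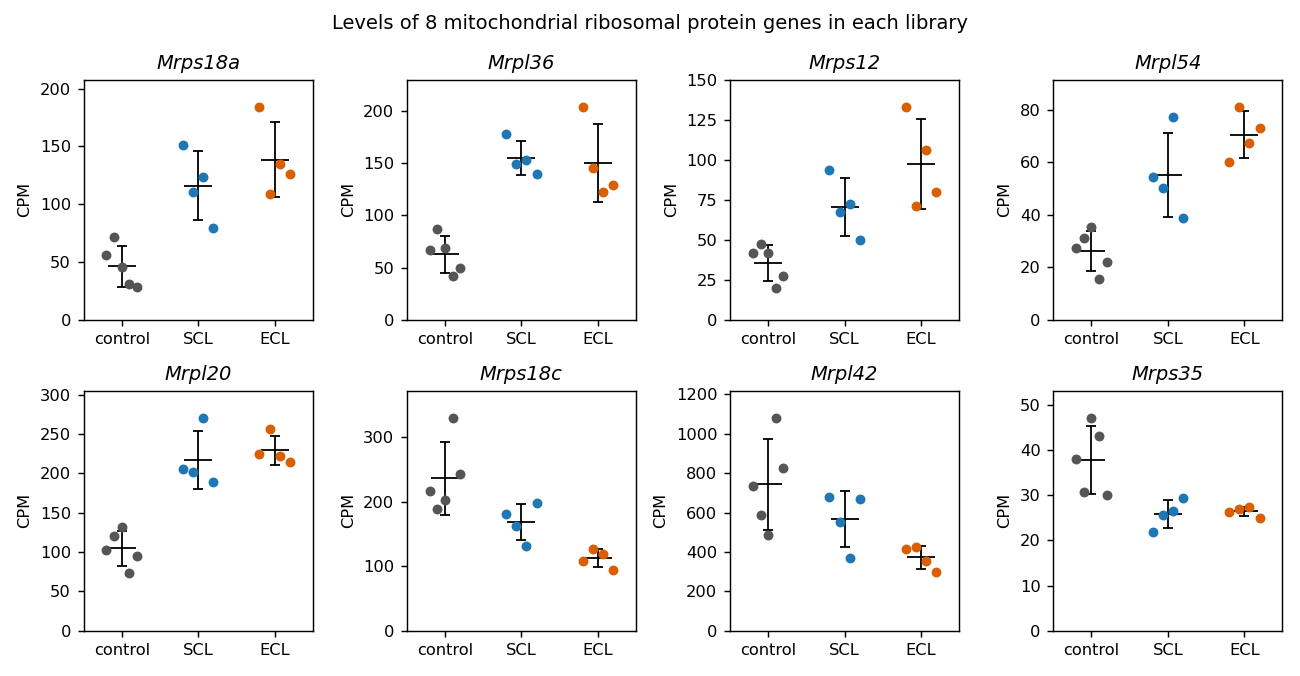
Level of 8 members in each library (y axis, CPM, starting at 0) for control, SCL and ECL cultures (x axis), where points are cultures, horizontal bars means and vertical bars SD. Mrps18a, Mrpl36, Mrps12, Mrpl54 and Mrpl20 lie higher after both lesions with no overlap with controls, while Mrps18c and Mrpl42 lie lowest after ECL and Mrps35 lies lower after both.

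Among the Mrps genes, Mrps18a had the largest rise of all members after either lesion. It had 55.8, 71.3, 45.7, 30.7 and 28.1 CPM in controls, 151, 110.4, 124 and 79.2 after SCL and 185, 109, 135 and 127 after ECL, without overlap. The log2 fold change was 1.32 ± 0.27 after SCL (adjusted p = 0.00535 by edgeR) and 1.59 ± 0.25 after ECL (adjusted p = 0.000739), or 2.503-fold and 3.01-fold. Mrps12, the counterpart of bacterial S12 in the decoding centre, had 41.5, 47.4, 41.8, 19.7 and 27.4 CPM in controls, 93.7, 67.4, 72.6 and 49.7 after SCL and 133, 70.98, 106 and 79.8 after ECL. All lesioned cultures lay above the controls, with log2 fold changes of 0.99 ± 0.25 (adjusted p = 0.0145 by edgeR) and 1.46 ± 0.25 (adjusted p = 0.00112). Mrps11 had 27.5, 33.3, 30.1, 10.2 and 19.8 CPM in controls, 62.2, 43.8, 44.9 and 45.5 after SCL and 76.8, 39.1, 60.3 and 42.9 after ECL. It was above all controls in every lesioned culture. Its SCL call (1.02 ± 0.28, adjusted p = 0.0203, edgeR) was lost without SCL 1 (adjusted p = 0.0598) and without control 5 (0.0505).

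Mrps18a, Mrps18b and Mrps18c are paralogs of bacterial S18. Mrps18b had 8.38, 7.11, 3.51, 3.33 and 9.34 CPM in controls, 23.2, 9.85, 13.03 and 6.701 after SCL and 24.1, 13.03, 11.3 and 12.02 after ECL. Its level per kilobase was among the 3 lowest of all members, SCL 4 overlapped with controls, and SCL 1 and ECL 1 were each far above the rest of their group. The rise passed the test after ECL (1.26 ± 0.35, adjusted p = 0.0151, edgeR) but not without ECL 1 (adjusted p = 0.0641), and the value after SCL was 1.06 ± 0.39 (adjusted p = 0.0639, 0.0332 without SCL 4), where 6 alternatives called it, among them DESeq2 (0.0285) and the replicate block (0.01995). Of its exon bases, 30.5% are shared with the antisense gene Gm16279, so its counts are uncertain. Mrps18c had 217, 189, 203, 331 and 243 CPM in controls, 181, 163, 132 and 198 after SCL and 108, 126, 119.8 and 95.02 after ECL. All ECL cultures lay below all controls and all SCL cultures. After ECL, Mrps18c fell by 1.07 on the log2 scale (SE 0.17, adjusted p = 0.000779, edgeR), and this call held in every alternative. After SCL the value was -0.49 ± 0.18 (adjusted p = 0.0575, 0.0409 without control 2 and 0.0473 without SCL 4). It was also called lower after SCL by DESeq2 (0.0377), in a single fit of all libraries (0.0416) and with the length and GC offset (-0.79, adjusted p = 0.00754), which makes 5 of 19 alternatives, and 23.2% of its exon bases are shared with Gm43511 on the same strand.

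Mrpl42 and Mrps35 were the other members called lower. Both code for proteins found only in mitochondria. Mrpl42 (95480805 to 95501940, chromosome 10, minus strand) had 735, 589.5, 487, 1083 and 829 CPM in controls, 679.9, 554, 372 and 669 after SCL and 413, 428, 356 and 299.99 after ECL. Control 4 was the highest of all 13 libraries, SCL cultures overlapped with controls, and all ECL cultures lay below them. Mrpl42 fell by 0.98 after ECL on the log2 scale (SE 0.21, adjusted p = 0.00435, edgeR) in every alternative, and had -0.38 ± 0.23 after SCL (adjusted p = 0.243). Mrps18c and Mrpl42 were among the 4 members with the highest control levels per kilobase. Mrps35 had 37.97, 30.8, 47.2, 43.1 and 30.1 CPM in controls, 21.8, 25.5, 26.5 and 29.3 after SCL and 26.3, 26.8, 27.5 and 25.01 after ECL. Its log2 fold changes were -0.56 ± 0.17 (adjusted p = 0.0341 by edgeR) and -0.51 ± 0.17 (adjusted p = 0.0375), close to the threshold. The SCL call was lost without control 1, 3 or 4 or SCL 1, 2 or 3 (adjusted p from 0.0514 to 0.0917), and the ECL call without control 1, 3 or 4 or any ECL culture (0.0536 to 0.105). Both calls were also lost with scaling factors over all symbols (-0.34 and -0.31, adjusted p = 0.122 and 0.167), without a minimum level (0.271 and 0.288) and with the length and GC offset (-0.36 and -0.30, 0.135 and 0.176), and the ECL call with a sex term (0.0965).

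**Figure D3:**
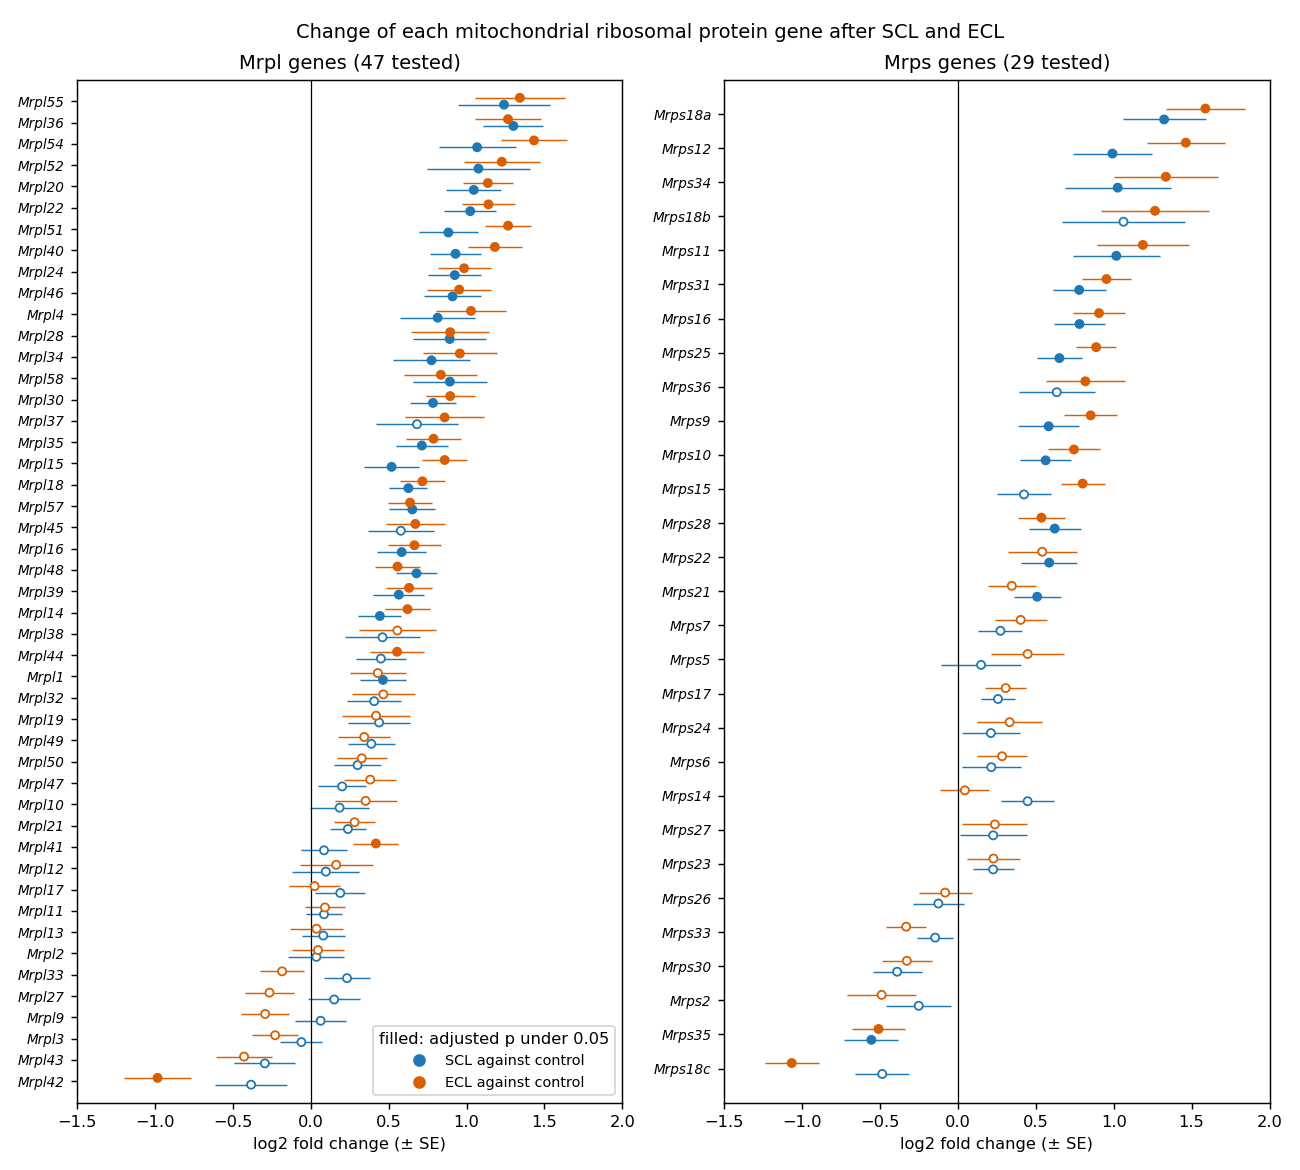
Log2 fold change with SE (x axis) of each tested Mrpl gene (left) and Mrps gene (right) after SCL and ECL, ordered by the mean of both values, with filled points for an adjusted p under 0.05. Mrps18a lies at the top of the Mrps genes (1.32 after SCL and 1.59 after ECL), and Mrpl42 and Mrps18c lie at the bottom after ECL (-0.98 and -1.07).

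Members that were not called lay mostly above 0, in 31 of 39 after SCL and 24 of 33 after ECL. Their median SE was 0.17 on the log2 scale after either lesion. Changes well above that SE also went uncalled, up to 1.06 after SCL (Mrps18b) and 0.56 after ECL. A missing call therefore does not show that a change was small. Mrpl12, which forms the stalk that recruits translation factors, had 69.2 ± 21.96 CPM in controls, 74.2 ± 9.89 after SCL and 77.1 ± 19.6 after ECL (SD), with 0.10 ± 0.21 after SCL and 0.16 ± 0.23 after ECL (-0.24 and -0.27 with the length and GC offset). Mrps21 rose after SCL (0.51 ± 0.15, adjusted p = 0.0273, edgeR), a call lost without control 1 or 5 or SCL 3 or 4 (adjusted p from 0.0539 to 0.0740), with the replicate block (0.0567) and with the length and GC offset (0.099, adjusted p = 0.597). After ECL it had 0.35 ± 0.15, and 0.53 with factors over all symbols (adjusted p = 0.0268) and without a minimum level (0.0305). Mrpl41 had 0.09 ± 0.15 after SCL and rose by 0.42 after ECL (adjusted p = 0.0445, edgeR), which was lost without control 1, 2 or 3 or any ECL culture (0.0566 to 0.128), with a sex term (0.0680) and with a lower minimum level (0.0560), and reversed with the offset for length and GC content. Mrps36 had 0.63 ± 0.24 after SCL (adjusted p = 0.0722, edgeR) and rose by 0.82 after ECL (adjusted p = 0.0269), which was lost without control 5, ECL 2 or ECL 4 (0.0506 to 0.103), with a sex term (0.0681) and with the length and GC offset (0.49, adjusted p = 0.108). Its SCL value passed with factors over all symbols (0.84, adjusted p = 0.0321) and without a minimum level (0.00995).

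A pair of members had too few counts to be tested against controls. Mrpl23, the counterpart of a protein at the exit of the tunnel, had 7.09, 6.06, 6.89, 4.59 and 5.51 CPM in controls, 7.91, 8.598, 8.36 and 5.52 after SCL and 7.97, 7.86, 8.200 and 6.404 after ECL. Mrpl53 had counts in ECL 1 alone (0.0452 CPM). Of its exon bases, 88.0% are shared on the same strand with the read-through gene Gm42688, and 24.4% of its 100-base stretches are unique to it, so its count is uncertain. Mrps25 and Mrps34, both called higher after both lesions and singled out after their values were seen, share 69.8% and 63.4% of their exon bases with Nr2c2 and Mapk8ip3 on the other strand and are uncertain, since strand was not used in counting. The SCL call of Mrps34 held in 11 of 19 alternatives and was lost without control 3, 4 or 5 or SCL 1, 2 or 3, with a sex term and with the length and GC offset.

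ECL and SCL were compared directly to ask whether the lesions differ. Of the 77 members tested, 0 were called (edgeR, smallest adjusted p = 0.486), and 0% of all 12232 genes were called, while 5 members and 897 genes had an unadjusted p under 0.05. DESeq2 called 62 genes and 0 members. The smallest p-values were those of Mrps18c (-0.58 ± 0.16, unadjusted p = 0.00343, edgeR), Mrpl33 (-0.42 ± 0.14, unadjusted p = 0.0110) and Mrpl42 (-0.60 ± 0.20, unadjusted p = 0.0137), in log2 of ECL over SCL. Mrpl33 had 113, 128, 116 and 153 CPM after SCL and 89.4, 101, 101 and 87.00 after ECL, with no overlap, and 104, 111, 135, 91.3 and 98.8 in controls, which overlapped with both. All 3 were lower after ECL, but none passed the adjustment, so the fall of Mrps18c and Mrpl42 after ECL was not shown to differ from their values after SCL.

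Subunit proteins whose symbols do not follow the rule were given beside the members. Aurkaip1 and Gadd45gip1, both counted as subunits of the mitochondrial ribosome, rose after both lesions. Aurkaip1 had 0.89 ± 0.24 after SCL (adjusted p = 0.0183 by edgeR) and 1.10 ± 0.24 after ECL (adjusted p = 0.00440), with no overlap with controls. Gadd45gip1 had 0.82 ± 0.26 and 1.14 ± 0.26 (adjusted p = 0.0387 and 0.00665), and its SCL call was lost without control 1, 4 or 5 or SCL 1, 2 or 3 (0.05002 to 0.130), with the replicate block (0.0567), with a sex term (0.0528) and with the length and GC offset (0.0754). Ptcd3 of the small subunit had 53.4, 26.02, 25.2 and 14.9 CPM after SCL and 44.2, 25.6, 17.1 and 25.96 after ECL against 19.8, 16.9, 15.9, 18.5 and 17.00 in controls. SCL 1 and ECL 1 were high and SCL 4 was below all controls. Its rise was called after ECL (0.69 ± 0.23, adjusted p = 0.0414) but not without any of the 5 controls or without ECL 1, 2 or 4 (0.0511 to 0.177), with the replicate block (0.0701) or in a single fit of all libraries (0.0966), and after SCL it had 0.76 ± 0.28 (adjusted p = 0.0641, 0.0142 without SCL 4 and 0.0368 by DESeq2). The SCL rise was also called with factors over all symbols (0.0271), without a minimum level (0.000308) and with the length and GC offset (0.0327). Dap3, a GTP-binding protein of the small subunit, had -0.24 ± 0.11 and -0.06 ± 0.13, and Chchd1 had 0.05 ± 0.14 and -0.01 ± 0.15, with adjusted p-values of 0.139, 0.759, 0.809 and 0.974. With the length and GC offset, Chchd1 was called lower after ECL (-0.41, adjusted p = 0.0498, edgeR).

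The mitochondrial rRNAs moved the other way. mt-Rnr1, the 12S rRNA of the small subunit, had 16981, 18312, 16285, 26454 and 19269.5 CPM in controls, 3504, 4258, 3634 and 6474 after SCL and 4398, 7282, 7161 and 6857 after ECL. mt-Rnr2, the 16S rRNA of the large subunit, had 32274, 33221, 29531, 41901 and 32146 CPM in controls, 11092, 11954, 10939.6 and 17676 after SCL and 13990.3, 17969, 16431 and 16059.9 after ECL. Neither overlapped between lesioned and control cultures. mt-Rnr1 fell by 2.12 after SCL and 1.59 after ECL on the log2 scale (adjusted p = 0.000576 and 0.000288, edgeR), and mt-Rnr2 by 1.39 and 1.06 (adjusted p = 0.00177 and 0.00120). cDNA was made from polyadenylated RNA, so these values count the rRNA that was primed in that step and are not a measure of ribosome number.

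**Figure D4:**
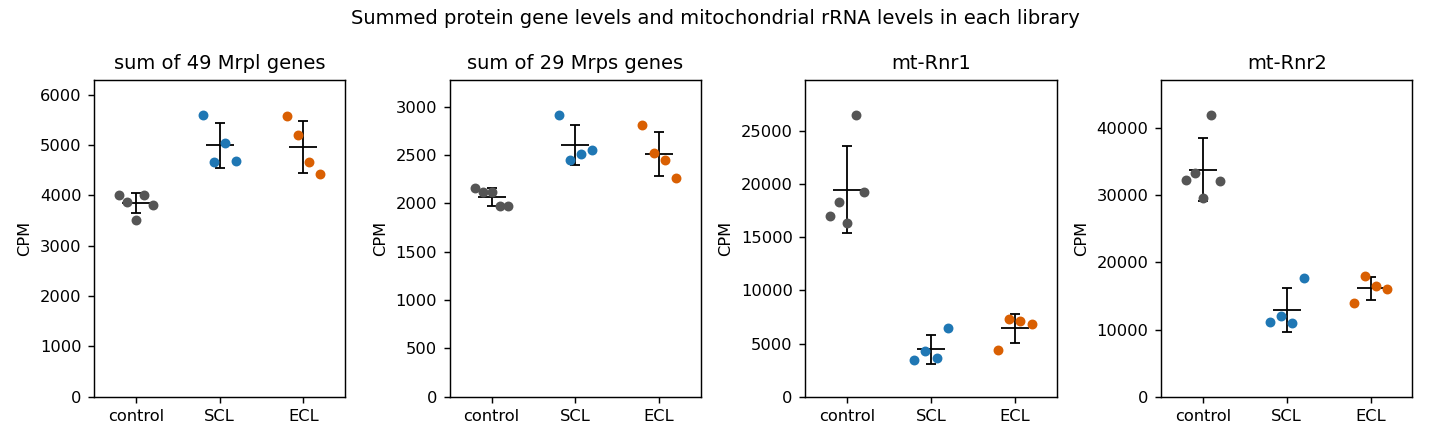
Summed level of the 49 Mrpl genes and of the 29 Mrps genes, and levels of mt-Rnr1 and mt-Rnr2, in each library (y axes, CPM, starting at 0) for control, SCL and ECL cultures (x axis), where points are cultures and bars mean and SD. The protein gene sums lie higher and both rRNAs lower in the lesioned cultures, without overlap with controls.

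Other genes of mitochondrial gene expression were taken as lists. Of 21 tested genes for assembly of the ribosome and modification of its rRNAs, 3 rose and 0 fell after SCL, namely Malsu1, Fastkd2 and Mettl15. After ECL, 4 rose (Malsu1, Mettl15, Mrm3 and Eral1) and 1 fell, Rpusd4. That is 14.3% and 19% called higher, beside 13.1% and 15.2% of all genes tested. Eral1, a chaperone of 12S rRNA named here after its values were seen, had 1.34 ± 0.48 after ECL (adjusted p = 0.0494, edgeR). The median log2 fold changes of this list were 0.11 and 0.22. Malsu1, which keeps an immature large subunit from joining, had 42.2, 52.1, 43.8, 33.7 and 43.3 CPM in controls, 80.6, 74.1, 81.7 and 67.2 after SCL and 92.6, 87.3, 100.1 and 85.6 after ECL. It did not overlap with controls and rose by 0.82 and 1.09 on the log2 scale (adjusted p = 0.00332 and 0.000259, edgeR). Fastkd2, which binds 16S rRNA, rose by 0.82 after SCL (adjusted p = 0.0140) and had 0.61 ± 0.28 after ECL (adjusted p = 0.121, 0.0163 without ECL 3). Its ECL value also passed without a minimum level (0.00528) and with the length and GC offset (0.0424). The calls of Mettl15 and Mrm3, methyltransferases for the rRNAs, and of Rpusd4, a pseudouridine synthase, had adjusted p-values of 0.0264 to 0.0466. Mettl15 was lost after SCL without control 1, 3 or 5 or SCL 1, 2 or 3 (0.0569 to 0.136) and after ECL without control 1, 2, 3 or 5 or ECL 1, 2 or 4 (0.0577 to 0.179). Mrm3 was lost without control 1 or 5 or ECL 1 or 3 (0.0590 to 0.0932), and Rpusd4 without control 1 or ECL 1, 2 or 4 (0.0526 to 0.0883). The replicate block, sex term and length and GC offset each ended the calls of Mettl15 and Mrm3 (0.05005 to 0.176), and factors over all symbols, no minimum level and the sex term that of Rpusd4 (0.0604 to 0.123). Rpusd4 (0.63-fold) and Mrm3 (1.47-fold) were not called after SCL, but both passed in some alternatives. Among these were DESeq2 for Rpusd4 and Mrm3 (adjusted p = 0.0215 and 0.0453) and the length and GC offset for Rpusd4 (0.0217, edgeR).

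Of 13 translation factors, 0 rose and 1 fell after SCL, and 1 rose and 1 fell after ECL, that is 0% and 7.69% called higher beside the same shares of all genes. Lrpprc, which keeps mitochondrial messages stable, was the one that fell, by 0.58 and 0.70 on the log2 scale (adjusted p = 0.0166 and 0.0107, edgeR), and the SCL call was lost without SCL 3 (0.0564). With factors over all symbols both calls were lost (-0.37 and -0.49, adjusted p = 0.0737 and 0.0567), as they were without a minimum level (0.181 and 0.0579). Tsfm, the exchange factor of the elongation factor Tu, rose by 1.21 after ECL (adjusted p = 0.0311), which was lost without control 5 or any ECL culture (0.0525 to 0.0766) and with a sex term (0.0539). Among tRNA synthetases and tRNA-charging genes, 1 of 16 rose after SCL (Iars2, 0.41 ± 0.13, lost without control 2, 3, 4 or 5 or any SCL culture, 0.0517 to 0.0976, with the replicate block, 0.103, and with a sex term, 0.0506) and 2 of 15 after ECL, Gatc (0.83 ± 0.20) and Lars2 (1.13 ± 0.23). These are 6.25% and 13.3% called higher, beside 13.1% and 15.2% of all genes tested. Gatc (1.56-fold) and Lars2 (1.41-fold) were not called after SCL, nor was Iars2 (1.28-fold) after ECL, but each passed in some alternatives. Gatc was called after SCL by DESeq2 (adjusted p = 0.0370) and in a single fit of all libraries (0.0311, edgeR). Lars2 was called after SCL without a minimum level (0.0185, edgeR), and Iars2 after ECL with the length and GC offset (0.00800, edgeR).

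Of 5 transcription genes, Tefm, an elongation factor of the mitochondrial polymerase, rose after both lesions, by 1.30 and 1.28 on the log2 scale (adjusted p = 0.00223 and 0.00384, edgeR). That is 20% called higher after each lesion, beside 13.1% and 15.2% of all genes tested. Tfam, which packages mitochondrial DNA and starts its transcription, had -0.46 ± 0.17 after SCL (adjusted p = 0.0680, 0.0428 without control 2, 0.0474 with the length and GC offset and 0.0483 in a single fit of all libraries). It fell by 0.54 after ECL (adjusted p = 0.0390), which was lost without control 4 or 5 or any ECL culture (0.0588 to 0.0982), with factors over all symbols (-0.34, 0.175), without a minimum level (0.209), with the replicate block (0.109) and with a sex term (0.132). Of 8 regulators that act in the nucleus, 0 rose, 1 fell after SCL and 2 fell after ECL. Among all genes tested, 11.8% and 12.5% were called lower, so counts this small say little about the list. Ppargc1a, a coactivator of mitochondrial genes, had 107, 105, 97.2, 136 and 129.5 CPM in controls, 85.1, 85.00, 88.03 and 79.4 after SCL and 79.4, 92.7, 73.3 and 78.9 after ECL. Every lesioned culture lay below every control. It fell by 0.45 and 0.50 on the log2 scale (adjusted p = 0.0223 and 0.0202, edgeR), lost without control 5, SCL 2 or SCL 4 (0.0502 to 0.0552) and without ECL 4 (0.0626). Both calls were also lost with factors over all symbols (-0.24 and -0.31, adjusted p = 0.218 and 0.147), without a minimum level (0.380 and 0.245) and with the replicate block (0.0763 and 0.0629), and the ECL call with a sex term (0.05297). Yy1 fell by 0.60 after ECL (adjusted p = 0.00887) and had -0.31 ± 0.15 after SCL (adjusted p = 0.153). The ECL call was lost with factors over all symbols (-0.40, adjusted p = 0.0622) and without a minimum level (0.130).

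The members differ from other genes in length and base composition. Their median exon length was 2394 bases against 4638 for all genes tested after SCL, and their median GC content 50.3% against 49%. Across the 76 members, the change correlated with GC content at r = 0.31 after SCL and 0.37 after ECL and with log length at -0.24 and -0.21, as a description over genes of the same libraries. Over all genes tested, it correlated with GC content at 0.15 and 0.17 and with log length at -0.34 and -0.31. The trend with length was thus not particular to the members. With an offset for length and GC content, 30 members rose and 2 fell after SCL, and 36 rose and 7 fell after ECL, of 76 tested. In the same fits, 1517 of all 11438 genes rose and 1208 fell after SCL. After ECL, 1825 of 11212 rose and 1485 fell. The offset lowered the rise of several members named above by more than 1.5 times without ending the call, for Mrpl22 to 0.64 after SCL and 0.72 after ECL, for Mrps12 and Mrpl40 to 0.64 and 0.61 after SCL, and for Mrpl36 and Mrpl52 to 0.83 and 0.79 after ECL.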

How the data were processed

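RNA of 13 CA1 regions was sequenced. The authors trimmed reads with cutadapt 3.5, aligned them to mm10 with STAR 2.7.8a and counted them per GENCODE M25 gene with featureCounts 2.0.1, without strand. The deposited values are raw counts, without normalization. In each library 63.0 to 74.3% of low counts were even, so mates of a pair may have been counted separately; halved counts were tried. The headings of the count files number replicates differently from the labels; groups and numbers follow the labels, and sex follows the headings. No batch is given. Where replicates are separate cultures, nothing says which came from the same animal, so p-values measure the spread between cultures.

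Genes whose mean count over the libraries of a fit, after division by DESeq2 size factors, reached 150 were tested with edgeR 4.0.16 (R 4.3.3; TMM over the genes tested, glmQLFit, glmQLFTest, two-sided, Benjamini-Hochberg, threshold 0.05), in 1 fit per comparison. SE is the log2 fold change over the root of F. Coordinates, exon lengths and overlaps come from GENCODE M21 (GRCm38), which held all 78 symbols. Sequences come from RefSeq. The code was tested on simulated data.

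Named genes followed a rule: per lesion up to 10 called members with the largest change and no overlap; all members called lower; the 3 highest and 3 lowest levels per length; Mrps18a, Mrps18b, Mrps18c, Mrpl12 and Mrps36; untested members; the 3 smallest p between lesions; subunits outside the symbol rule; and up to 3 called genes per list. Members and lists were chosen with earlier results of these data known. Alternatives were DESeq2 1.42.0, its size factors, TMM over all symbols, other minimums, a replicate block, a sex term, halved counts, a length and GC offset (mgcv 1.9.3), a single fit, a threshold of 0.01 and leaving out each library.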

Additional observations from a re-analysis of the deposited data

Results flagged for a closer look

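In each of 136 groups of 4 or 5 cultures, the highest or lowest value was set against the others of its group, and chance alone flags about 1 in 20 such groups. A total of 8 values stood apart. Among members, Mrpl51 had 202 CPM in SCL 3 (the other SCL cultures 107 to 115), Mrps11 had 62.2 CPM in SCL 1 (43.8 to 45.5), Mrps18b had 24.1 CPM in ECL 1 (11.3 to 13.03), Mrps36 had 6.83 CPM in control 3 (12.3 to 14.3), and Mrpl53 had 0.0452 CPM in ECL 1 with 0 in the others. Outside the members, Fastkd2 had 40.98 CPM in SCL 1 (22.4 to 23.3), mt-Rnr1 had 4398 CPM in ECL 1 (6857 to 7282) and mt-Rnr2 had 17676 CPM in SCL 4 (10940 to 11954). SCL 1 and ECL 1 hold 5 of these 8 values, and they are also the cultures with the highest sums of member genes in their groups.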

How the results depend on the processing

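The count of members called after SCL (37) ran from 22 to 40 when single cultures were left out (lowest without SCL 1) and was 16 at a threshold of 0.01. Calls over all genes tested (2848) were 1977 without SCL 1 and 1045 at a threshold of 0.01. With TMM factors over all symbols, the median of all genes tested moved to 0.21 after SCL and 0.18 after ECL and calls over all genes went from 1504 higher and 1344 lower to 2516 and 596 (SCL) and from 1708 and 1406 to 2435 and 695 (ECL). The member median was then 0.69 and 0.75, with 52 higher and 0 lower after SCL and 50 and 2 after ECL. Without a mean minimum the ECL median was 0.74, and 5390 and 8034 genes were called of all symbols with counts, against 2848 and 3114. The Mrpl minus Mrps median after ECL (0.17) was 0.13 with a replicate block, 0.13 with a sex term, 0.087 with the length and GC offset and 0.11 to 0.19 without single cultures. The same difference after SCL (0.07) was 0.19 with that offset. Under the offset Mrpl41 after ECL reversed to -0.087 (0.42 without it). The cause of these shifts was not tested. Deviations from the group mean correlated at -0.15 to 0.53 between same-numbered cultures and at -0.39 to 0.35 between differently numbered ones. The highest values were those of ECL 1 with SCL 1 (0.53) and control 3 with ECL 3 (0.41). Whether replicate numbers pair the cultures is therefore not settled. The fit with the replicate block called 33 members after SCL and 42 after ECL, and 2342 and 2663 of all genes tested. ECL against SCL called 0 members in each alternative. Mrpl23 and Mrpl53 had too few counts for a test against controls. Counting subunits by where the protein sits was chosen after seeing the data.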
